A study of Homo sapiens with 33 samples.

Results

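The J-domain proteins, also called HSP40, are the co-chaperones of the HSP70 chaperones. They were taken here as the rows of the gene count table whose symbol starts with DNAJA, DNAJB or DNAJC followed by a number and holds no hyphen. The table held 46 such rows of 26475 in all, and 39 of them had enough reads to be tested among 14613 tested genes. The study sequenced total RNA from HEK293T, a human embryonic kidney cell line, after transfection of base editor plasmids. A base editor is a deaminase fused to Cas9 that nicks 1 strand (nCas9), and the dual editor SpACE was set beside adenine editors, a cytosine editor and controls. ABEmax and miniABEmax-V82G are the adenine editors and Target-AID is the cytosine editor.

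The 33 libraries formed 11 groups of 3. ABEmax, miniABEmax-V82G, Target-AID, SpACE and nCas9 were each given with a guide RNA for HEKsite2 or with one for RNF2, in separate groups. The last group received GFP and no guide. The editor plasmids also encoded EGFP, and in all 11 groups the cells were sorted for GFP 36 to 40 h after transfection, so the RNA is from transiently transfected, GFP-positive cells of a single line. nCas9 and GFP are the negative controls. Total counts per library ran from 6790209 to 11200406. Markers of the HEK293 line (6 genes) summed to between 404 and 570 CPM (counts scaled to library size by the TMM method) in every library, with the Target-AID libraries at 404 to 438 CPM and the nCas9 libraries at 535 to 564 CPM. The summed level of 8 liver markers was at most 3.63 CPM, and it was 1.88 to 3.63 CPM in Target-AID libraries against 0.139 to 1.05 CPM in nCas9 libraries, with 2 or 3 of the 8 at 0 in a Target-AID group and 3 or 5 in an nCas9 group. Of the liver markers, SERPINA1 (85 of 87 counts) and APOB (63 of 71) had most of their counts in Target-AID libraries, while ALB had 4 of 25, APOA1 8 of 67, TTR 3 of 15, FGB 0 of 14, APOA2 1 of 10 and AFP 3 of 6. Of the HEK293 markers, VIM had 14623 of 94366 counts in Target-AID libraries, KRT8 1201 of 7442 and KRT18 2503 of 14398. NEFL had 3700 of 19798, NEFM 1257 of 6341 and PAX2 21 of 91. VIM thus holds most of the HEK293 sum, which does not show a fall of each gene. None of the 6 HEK293 markers was at 0 in any group. The labels do not say whether the 3 libraries of a group came from separate transfections, so a p-value here speaks to the spread among these libraries and no further.

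A J-domain protein binds a client protein, carries it to HSP70 and, through its J domain, stimulates HSP70 to split ATP and close on the client. Classes A and B have the domain at the amino terminus, and class C may hold it elsewhere and includes members tied to a membrane, an organelle or the ribosome. DNAJB1 is a classical gene of the heat shock response, whose transcription factor HSF1 binds repeats of a short GAA unit called heat shock elements.

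The promoter windows of DNAJB1, DNAJA1 and DNAJB6, members higher with every editor, are shown because they hold such repeats. Windows run from 250 bases before to 50 bases after a start site on RefSeq GRCh38.p14, and 52 windows were found for 40 of the 46 members, among 35116 windows of 27305 genes. Capitals mark every match to 3 alternating units (GAA, TTC and GAA, with any 2 bases between neighbours) or to 2 units, GAANNTTC or TTCNNGAA. Both strands were searched, and the 2-unit motifs also lie inside the 3-unit one. The windows are chr19:14518348-14518647 on the minus strand, chr9:33025023-33025322 on the plus strand and chr7:157336754-157337053 on the plus strand.
DNAJB1: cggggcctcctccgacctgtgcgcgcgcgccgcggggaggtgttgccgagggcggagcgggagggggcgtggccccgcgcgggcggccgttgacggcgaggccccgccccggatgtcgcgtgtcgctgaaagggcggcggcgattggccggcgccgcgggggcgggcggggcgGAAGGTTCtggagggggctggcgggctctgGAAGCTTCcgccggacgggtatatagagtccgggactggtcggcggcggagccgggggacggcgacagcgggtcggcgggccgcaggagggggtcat
DNAJA1: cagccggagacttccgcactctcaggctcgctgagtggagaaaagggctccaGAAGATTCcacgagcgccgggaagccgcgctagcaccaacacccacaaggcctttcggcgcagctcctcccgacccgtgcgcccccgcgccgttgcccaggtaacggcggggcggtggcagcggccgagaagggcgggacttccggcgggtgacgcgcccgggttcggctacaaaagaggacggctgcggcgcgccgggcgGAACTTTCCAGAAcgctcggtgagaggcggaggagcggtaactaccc
DNAJB6: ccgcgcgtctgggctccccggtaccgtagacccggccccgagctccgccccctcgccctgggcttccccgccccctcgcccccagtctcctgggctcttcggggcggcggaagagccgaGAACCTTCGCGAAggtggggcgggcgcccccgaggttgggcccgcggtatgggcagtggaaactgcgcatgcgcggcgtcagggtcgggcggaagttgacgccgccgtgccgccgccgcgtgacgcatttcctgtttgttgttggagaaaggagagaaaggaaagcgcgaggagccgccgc

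The 3-unit motif was in 2 of the 52 member windows, those of DNAJA1 and DNAJB6, and in 0.49% of all windows. In DNAJB6 it began 131 bases before the start, and in DNAJA1 it began 4 bases after it. GAANNTTC was in 7 member windows and 6.77% of all windows. In DNAJB1 it lay 77 and 47 bases before the start, and of the other DNAJB1 windows 1 held it and 1 held no match. TTCNNGAA was in 4 member windows, including that of DNAJB4 at 98 bases before the start, and in 7.74% of all windows. The endoplasmic reticulum stress element, CCAAT and CCACG with any 9 bases between, the site of the unfolded protein response, was in 0 member windows and 0.0769% of all windows. The window of DNAJB5, also higher with every editor, held no match, and neither did that of DNAJB2. A window of DNAJA4, which was not called against nCas9 with any editor, held GAANNTTC at 91 and 52 bases before the start. Whether the matches relate to the changes in level was not tested. A match describes these letters and does not show binding.

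Levels were compared between genes per kb of annotated exon (GENCODE 29). In nCas9 cells with the HEKsite2 guide DNAJA1 was the highest member at 161 CPM per kb, followed by DNAJC8 at 89.0 CPM per kb and DNAJB1 at 53.7 CPM per kb. In Target-AID cells with the same guide DNAJB1 was first at 698 CPM per kb and DNAJA1 second at 233 CPM per kb. In GFP cells DNAJA1 had 187 CPM per kb, DNAJB1 79.9 CPM per kb and DNAJC8 78.3 CPM per kb. DNAJA4 was the lowest tested gene other than a pseudogene, at 0.125 CPM per kb in Target-AID, 0.114 in nCas9 and 0.0984 in GFP cells.

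**Figure D1:**
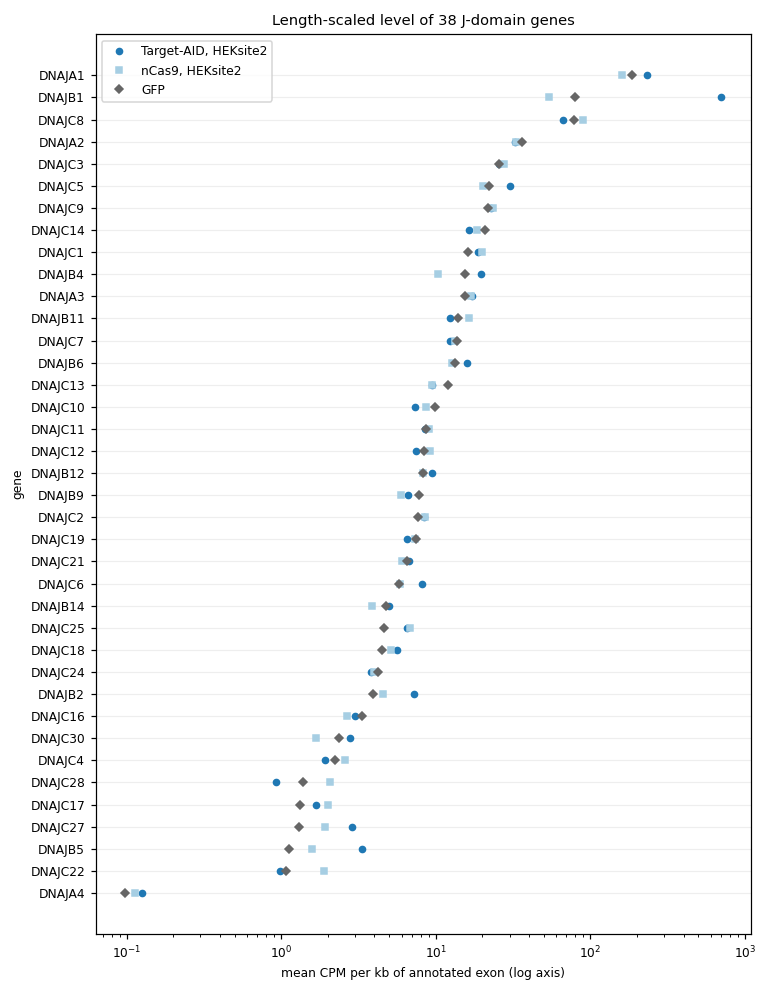
Mean CPM per kb of annotated exon (log axis) of 38 tested J-domain genes in Target-AID and nCas9 cells with the HEKsite2 guide and in GFP cells, 3 libraries each. DNAJB1 stands at 698 CPM per kb in Target-AID cells, against 53.7 in nCas9 and 79.9 in GFP cells, while DNAJA2 stands at 32.3, 33.2 and 36.3 CPM per kb in the same groups.

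The 7 members that were not tested had 166 counts or fewer over all 33 libraries. They were DNAJB13 with 166 counts, DNAJC15 with 131, DNAJB7 with 104, DNAJC5G with 43, DNAJC5B with 8, DNAJB8 with 7 and DNAJB3 with 1. DNAJB13 is known from cilia and sperm tails and DNAJB8 from testis. The tested row DNAJA1P5 is a processed pseudogene of DNAJA1 at chr1:101893105-101894047, inside OLFM3 and on the other strand. Its 63 counts were 36 in Target-AID with HEKsite2, 26 in Target-AID with RNF2 and 1 in miniABEmax-V82G with RNF2, so it passed the count filter only through Target-AID and had to differ there. DNAJA1, which it resembles in sequence, had 17923 counts in Target-AID with HEKsite2 and 17598 in SpACE with HEKsite2, where the pseudogene had 0. OLFM3 had 6 counts in the Target-AID libraries and 5 in all others. The source of the pseudogene's reads was not tested. The pseudogene is left out of the per-length plot and the heat map.

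The first question was how each editor changed the family relative to nCas9 with the same guide. A core of cytosolic and nuclear co-chaperones of classes A and B rose with every editor and guide, and DNAJC22 fell with every editor and guide. The other tested members were called in at most 6 of the 8 comparisons, and 11 of them in 0. Genes were called at an adjusted p under 0.05 (edgeR's quasi-likelihood test, Benjamini-Hochberg over all genes tested). With the HEKsite2 guide, 9 of 39 rose and 3 fell (all genes tested: 8.31% higher and 7.55% lower, 15.9% in all) in ABEmax cells. In miniABEmax-V82G cells 8 of 39 rose and 2 fell (all genes tested: 5.02% higher and 5.32% lower, 10.3% in all). In Target-AID cells 13 of 39 rose and 8 fell (all genes tested: 21.5% higher and 19.1% lower, 40.6% in all). In SpACE cells 14 of 39 rose and 3 fell (all genes tested: 10.7% higher and 10.2% lower, 21.0% in all).

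With the RNF2 guide, 7 of 39 rose and 2 fell (all genes tested: 6.51% higher and 4.66% lower, 11.2% in all) in ABEmax cells. For miniABEmax-V82G 8 of 39 rose and 2 fell (all genes tested: 6.88% higher and 5.72% lower, 12.6% in all). For Target-AID 12 of 39 rose and 5 fell (all genes tested: 19.4% higher and 15.8% lower, 35.2% in all). For SpACE 12 of 39 rose and 2 fell (all genes tested: 8.03% higher and 6.68% lower, 14.7% in all). The pseudogene is 1 of the 13 and 1 of the 12 rises in Target-AID cells. The share of members that rose was above that of all genes in all 8 comparisons, from 7 of 39 to 14 of 39; falls in Target-AID cells, 8 and 5 of 39, were near the share of all genes. The median log2 difference over the tested members was near 0 throughout, between 0.00326 (Target-AID, HEKsite2) and 0.103 (SpACE, HEKsite2), beside medians over all genes tested of -0.00515 to 0.00349. Of the 110 calls in these comparisons, 83 held in every fit that left out 1 library. The pseudogene gave 2 of the 110 and 2 of the 83. In bulk RNA, fewer cells that express a gene and less of its RNA per cell cannot be told apart.

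**Figure D2:**
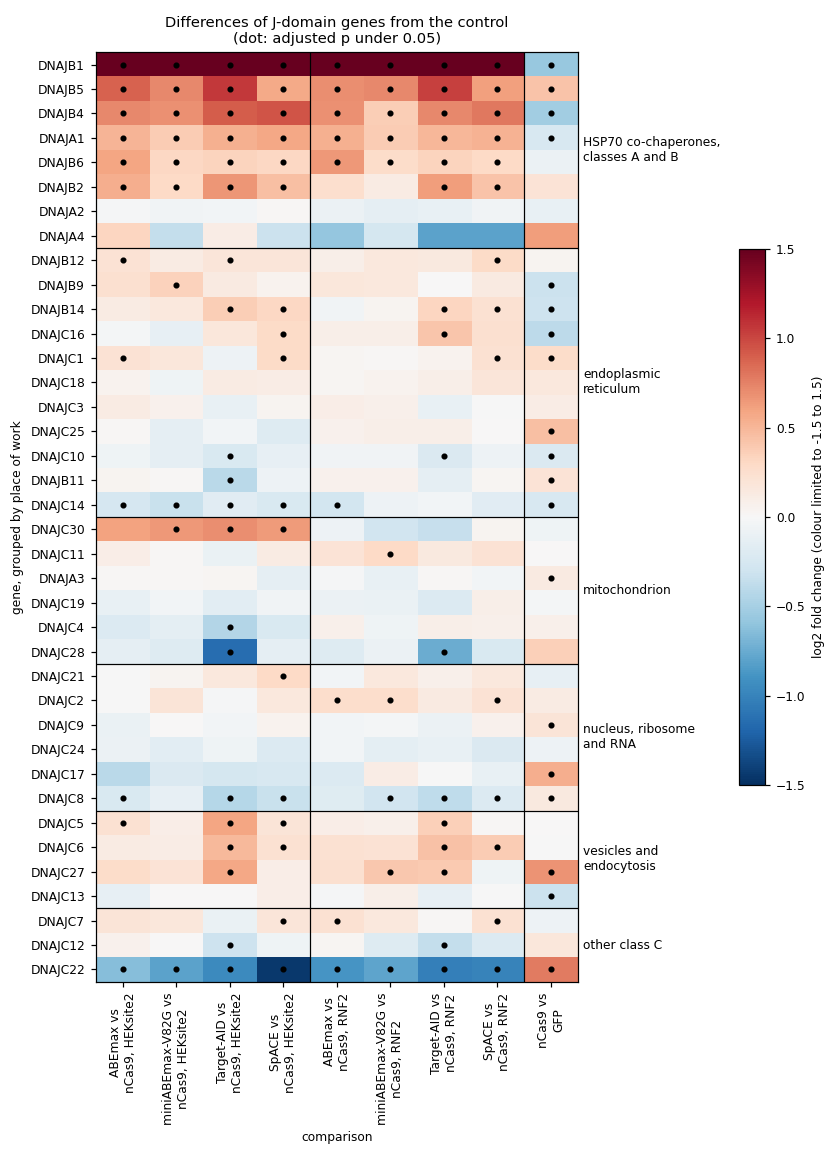
Log2 fold change of 38 J-domain genes (rows, grouped by place of work) in each editor against nCas9 of the same guide and in nCas9 against GFP (columns), with colour limited to -1.5 to 1.5 and a dot for adjusted p under 0.05. The rows of DNAJB1, DNAJB5, DNAJB4, DNAJA1 and DNAJB6 are called higher, and that of DNAJC22 lower, in all 8 editor columns.

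The tested members of classes A and B included 8 cytosolic and nuclear co-chaperones of HSP70. DNAJA3, DNAJB9, DNAJB11, DNAJB12 and DNAJB14 also belong to these classes and are described below with their organelles. Of the 8 cytosolic and nuclear members, 6 rose and 0 fell in each of the 4 comparisons with the HEKsite2 guide. Of all genes tested, 8.31%, 5.02%, 21.5% and 10.7% rose and 7.55%, 5.32%, 19.1% and 10.2% fell in ABEmax, miniABEmax-V82G, Target-AID and SpACE cells. With the RNF2 guide 5 rose in ABEmax and in miniABEmax-V82G cells and 6 in Target-AID and in SpACE cells, with 0 falls. Of all genes tested, 6.51%, 6.88%, 19.4% and 8.03% rose and 4.66%, 5.72%, 15.8% and 6.68% fell in the same order of editors. The median log2 difference of the 8 co-chaperones from nCas9 was 0.33 to 0.60, beside medians over all genes tested of at most 0.00349. The co-chaperones that rose were DNAJB1, DNAJA1, DNAJB4, DNAJB5 and DNAJB6 in all 8 comparisons and DNAJB2 in 6 of them. DNAJA2, a close relative of DNAJA1, had log2 differences of -0.14 to 0.02 and was called in 0 of the 8. DNAJA4 had -0.80 to 0.33 and was called in 0 of the 8, on 16 to 32 counts per group. The count of DNAJA2 and DNAJA4 at an adjusted p under 0.05 against nCas9 was 0 also in every fit without 1 library and by DESeq2.

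DNAJB1 (chromosome 19, 14514770 to 14529770, minus strand) was the member with the largest difference from nCas9 in every editor, the pseudogene apart. In Target-AID cells it had 2703, 2506 and 2477 CPM with HEKsite2 and 2542, 2130 and 1866 CPM with RNF2. In ABEmax cells it had 886, 818 and 871 CPM with HEKsite2 and 744, 757 and 749.5 CPM with RNF2. In miniABEmax-V82G cells it had 734, 668 and 800.4 CPM with HEKsite2 and 747, 727 and 698 CPM with RNF2. Every library of these groups lay above every control library. SpACE cells had 910.1, 808 and 777 CPM with HEKsite2 and 764, 648 and 691 CPM with RNF2. nCas9 cells had 197, 189.9 and 205 CPM with HEKsite2 and 207, 194 and 190.2 CPM with RNF2. GFP cells had 280.4, 301 and 299 CPM. The Target-AID libraries, at 1866 CPM or more, stood above all others, and the other editors lay between 648 and 910.1 CPM.

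The log2 fold change of DNAJB1 against nCas9 was 3.70 (SE 0.086, adjusted p = 1.25e-31) in Target-AID cells with HEKsite2, a 13-fold difference, and 3.47 (SE 0.085, adjusted p = 8.93e-31) with RNF2. In ABEmax cells it was 2.12 and 1.93 with the HEKsite2 and RNF2 guides, in miniABEmax-V82G cells 1.89 and 1.88, and in SpACE cells 2.07 and 1.83, with SE of 0.081 to 0.086 and adjusted p of at most 1.68e-20. Target-AID and SpACE, the constructs that edit cytosines, differed directly: DNAJB1 was higher in Target-AID cells by 1.62 (SE 0.078, adjusted p = 1.63e-20) with HEKsite2 and by 1.64 (SE 0.078, adjusted p = 1.4e-20) with RNF2. HSPA1B, an inducible HSP70 and partner of DNAJB1, had 2953 ± 272 CPM in Target-AID, 1208 ± 26.7 CPM in SpACE and 282 ± 4.88 CPM in nCas9 cells with HEKsite2 (SD, n = 3), and its reads may be shared with HSPA1A. DNAJB1 overlaps TECR on the opposite strand. TECR had 2747 counts in the Target-AID libraries and 12969 in all others, and whether the counting used strand is not stated. The lower HEK293 marker sum (mostly VIM) and higher liver marker sum (SERPINA1 and APOB) of the Target-AID libraries move with this result. Their part in this result was not tested.

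**Figure D3:**
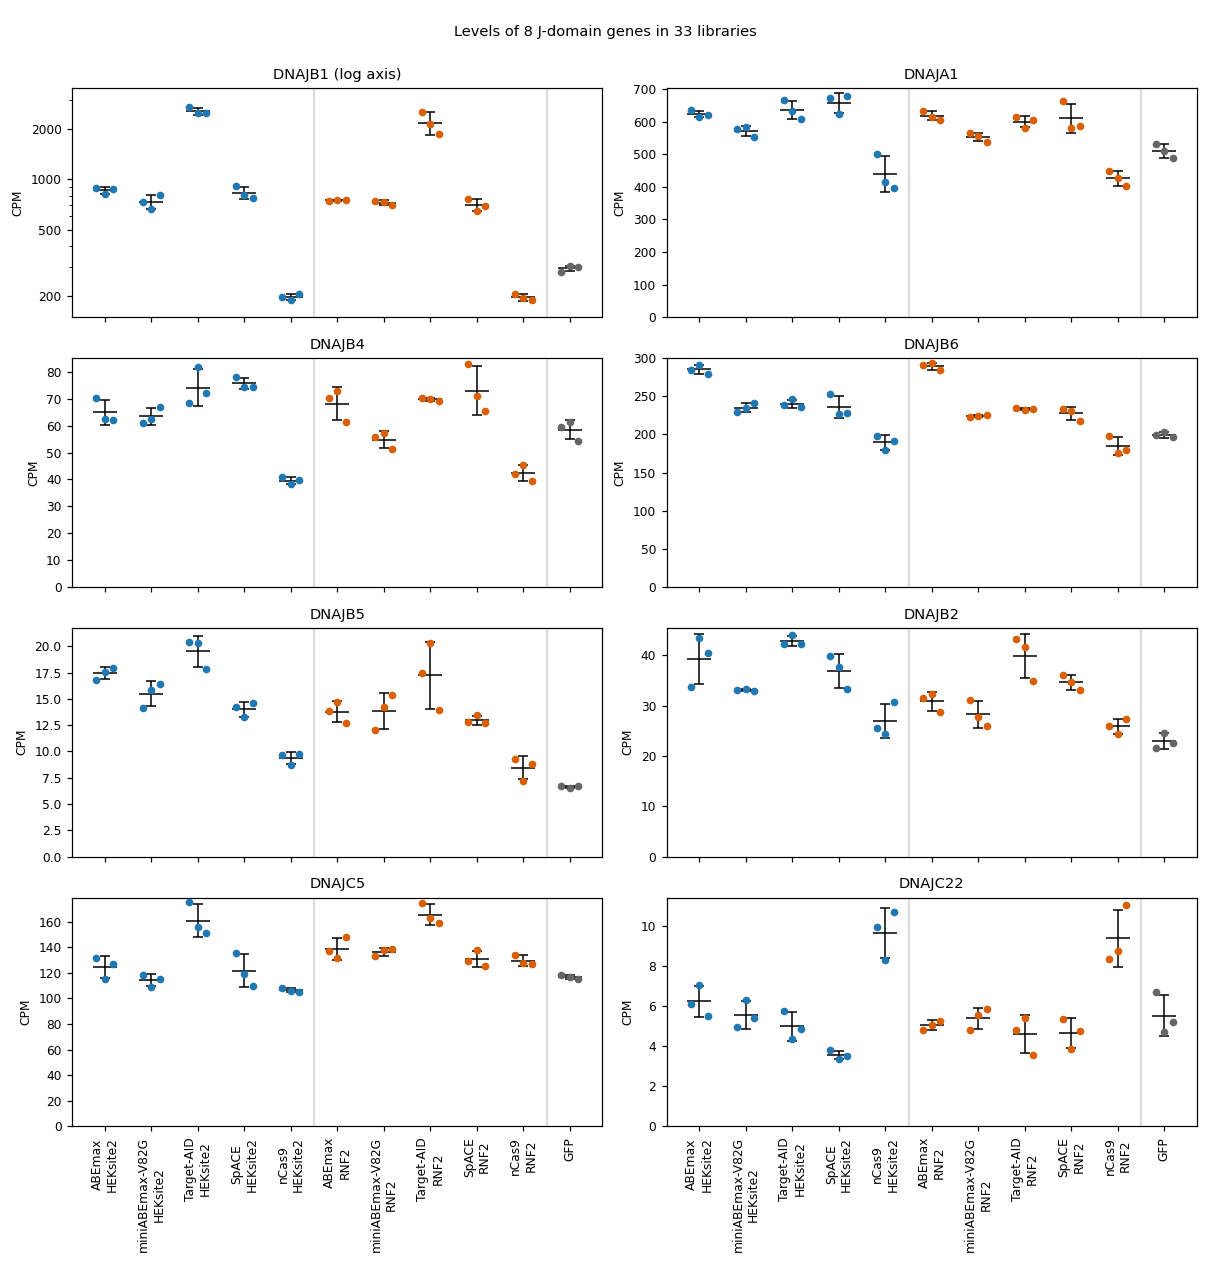
Points are the CPM of 8 members library by library, bars their mean and SD in a group of 3, by construct with the HEKsite2 guide (blue), with the RNF2 guide (orange) and for GFP (grey). The DNAJB1 axis is a log axis, on which Target-AID libraries lie at 1866 CPM or more and nCas9 libraries at 207 CPM or less.

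DNAJB1 carried most of the change in the family's summed counts. The tested members together had 5550 ± 203 CPM in Target-AID cells and 2936 ± 138 CPM in nCas9 cells with HEKsite2 (SD, n = 3), and 5137 ± 371 against 2930 ± 84.8 CPM with RNF2. DNAJB1 made up 46.2% of these counts in Target-AID cells and 6.73% in nCas9 cells with HEKsite2, and 42.2% against 6.72% with RNF2. Its share was 18.8 to 21.8% in the groups of the other editors and 9.35% in GFP cells. Without DNAJB1 the sum was 2988 ± 81.3 CPM in Target-AID and 2739 ± 139 CPM in nCas9 cells with HEKsite2, and 2844 ± 40.5 CPM in GFP cells.

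**Figure D4:**
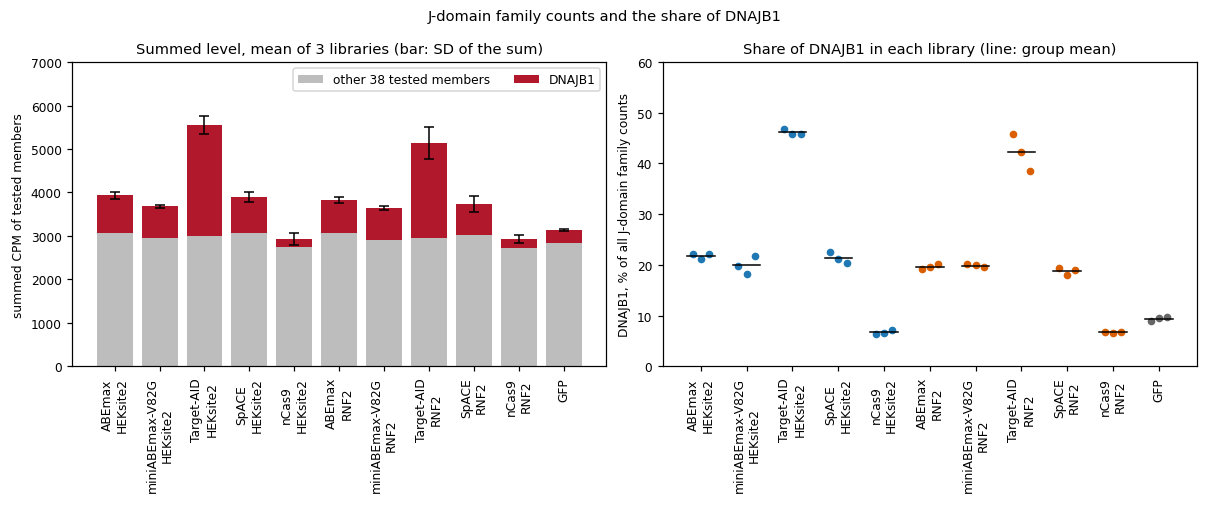
Left, summed CPM of the 39 tested members per group (mean of 3 libraries, bars start at 0, error bars are the SD of the sum), split into DNAJB1 (red) and the other 38 (grey). Right, the share of DNAJB1 in the family's counts in each library, with the group mean as a line, which is 46.2% in Target-AID and 6.73% in nCas9 cells with HEKsite2.

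DNAJA1 (chromosome 9, 33025211 to 33039907, plus strand) is the main class A co-chaperone of the cytosol. SpACE cells had 672, 624 and 678 CPM with HEKsite2 and 663, 582 and 587 CPM with RNF2. Target-AID cells had 666, 632 and 610.2 CPM with HEKsite2 and 615, 581 and 605 CPM with RNF2. ABEmax cells had 635, 616 and 621 CPM with HEKsite2 and 635, 615 and 607 CPM with RNF2. Every library of these editors lay above nCas9 of the same guide. miniABEmax-V82G cells had 577, 586 and 553 CPM with HEKsite2 and 566, 557 and 539 CPM with RNF2. nCas9 cells had 502, 416 and 398 CPM with HEKsite2 and 449, 427 and 404 CPM with RNF2. GFP cells had 532, 509 and 488 CPM. The log2 fold change against nCas9 ran from 0.38 to 0.58 over the 8 comparisons, all called, with the highest in SpACE cells with HEKsite2, 0.58 (SE 0.064, adjusted p = 8.39e-09). Target-AID and SpACE cells were not called different, at -0.05 (SE 0.064, adjusted p = 0.654) with HEKsite2 and -0.02 (SE 0.064, adjusted p = 0.848) with RNF2.

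DNAJB4 (chromosome 1, 77979175 to 78017964, plus strand) is a close relative of DNAJB1. With HEKsite2 it had 68.4, 81.8 and 72.4 CPM in Target-AID, 78.3, 74.4 and 74.6 in SpACE, 70.2, 62.5 and 62.2 in ABEmax, 60.9, 62.6 and 67.0 in miniABEmax-V82G and 40.7, 38.1 and 39.6 in nCas9 cells. The RNF2 groups had 70.4, 70.2 and 69.2 CPM in Target-AID, 83.0, 71.0 and 65.4 in SpACE, 70.3, 72.9 and 61.3 in ABEmax, 55.8, 57.3 and 51.4 in miniABEmax-V82G and 42.0, 45.4 and 39.6 in nCas9 cells. GFP cells had 59.5, 61.6 and 54.5 CPM. All editor libraries lay above the nCas9 libraries of their guide, and GFP lay between nCas9 and most editor groups, overlapping ABEmax with RNF2 and miniABEmax-V82G with both guides. The log2 fold change against nCas9 was 0.37 to 0.94, highest in SpACE cells with HEKsite2, 0.94 (SE 0.081, adjusted p = 2.42e-11). DNAJB4 lies over GIPC2 on the same strand, which had 82 counts in the Target-AID libraries and 453 in all others.

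DNAJB5 (chromosome 9, 34989641 to 34998900, plus strand) is a further class B relative of DNAJB1. With HEKsite2 it had 20.5, 20.4 and 17.9 CPM in Target-AID, 14.3, 13.2 and 14.6 in SpACE, 16.8, 17.6 and 17.9 in ABEmax, 14.2, 15.9 and 16.4 in miniABEmax-V82G and 9.70, 8.69 and 9.76 in nCas9 cells. The RNF2 groups had 17.5, 20.3 and 14.0 CPM in Target-AID, 12.8, 13.5 and 12.7 in SpACE, 13.8, 14.7 and 12.7 in ABEmax, 12.0, 14.2 and 15.4 in miniABEmax-V82G and 9.28, 7.24 and 8.84 in nCas9 cells. GFP cells had 6.68, 6.49 and 6.73 CPM. Each editor group lay above nCas9, and nCas9 lay above GFP. The log2 fold change against nCas9 was 0.57 to 1.06, highest in Target-AID cells with HEKsite2, 1.06 (SE 0.12, adjusted p = 2.46e-09). Target-AID cells also exceeded SpACE cells, by 0.49 (SE 0.11, adjusted p = 0.00115) with HEKsite2 and 0.41 (SE 0.11, adjusted p = 0.00885) with RNF2. The call with RNF2 was lost without replicate 2 of that Target-AID group and held in the other 5 fits without 1 library.

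DNAJB6 (chromosome 7, 157335381 to 157417439, plus strand), known for holding back the aggregation of polyglutamine proteins, had its highest level in ABEmax cells. With HEKsite2 ABEmax cells had 285, 292 and 279.6 CPM, Target-AID cells 238, 247 and 236, SpACE cells 253, 227 and 228, miniABEmax-V82G cells 229.9, 235 and 241 and nCas9 cells 198, 179.5 and 192 CPM. With RNF2 ABEmax cells had 291, 294 and 285 CPM, Target-AID cells 234, 232 and 233, SpACE cells 234, 231 and 218, miniABEmax-V82G cells 223, 224 and 226 and nCas9 cells 199, 176 and 179.7 CPM. GFP cells had 199, 204 and 196 CPM. The 6 ABEmax libraries, at 279.6 CPM or more, did not overlap any other group, whose highest library had 253 CPM, and this difference between editors was not tested. Against nCas9 the log2 fold change was 0.59 (SE 0.053, adjusted p = 3.98e-11) and 0.65 (SE 0.053, adjusted p = 2.9e-12) in ABEmax cells with HEKsite2 and RNF2, and 0.28 to 0.34 with the other editors, all called.

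DNAJB2 (chromosome 2, 219279267 to 219286900, plus strand), which can bind ubiquitin chains, rose in 6 of the 8 comparisons. With HEKsite2 it had 42.3, 43.9 and 42.1 CPM in Target-AID, 39.8, 37.6 and 33.2 in SpACE, 33.8, 43.4 and 40.4 in ABEmax, 33.1, 33.2 and 32.9 in miniABEmax-V82G and 25.6, 24.4 and 30.7 in nCas9 cells. The RNF2 groups had 43.2, 41.6 and 34.9 CPM in Target-AID, 36.1, 34.7 and 33.1 in SpACE, 31.5, 32.2 and 28.8 in ABEmax, 31.1, 27.7 and 25.9 in miniABEmax-V82G and 25.9, 24.3 and 27.4 in nCas9 cells. GFP cells had 21.6, 24.6 and 22.6 CPM. Target-AID gave the highest means with both guides. The log2 fold change was 0.67 (SE 0.093, adjusted p = 2.5e-07) in Target-AID cells with HEKsite2 and 0.63 (SE 0.094, adjusted p = 1.3e-06) with RNF2. With RNF2 it was not called in ABEmax, 0.25 (SE 0.099, adjusted p = 0.0884), or miniABEmax-V82G cells, 0.12 (SE 0.10, adjusted p = 0.463). The call in miniABEmax-V82G cells with HEKsite2, 0.29 (SE 0.096, adjusted p = 0.0412), was lost without any 1 of the 3 miniABEmax-V82G libraries or of replicates 1 and 2 of nCas9, where the adjusted p reached 0.196.

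Of the 4 tested members of vesicles and endocytosis, 3 rose in Target-AID cells with each guide (all genes tested: 21.5% higher with HEKsite2 and 19.4% with RNF2) and 0 fell in any of the 8 comparisons, on a group of only 4. DNAJC5 (chromosome 20, 63895182 to 63936031, plus strand), the cysteine string protein of secretory vesicles, was called in 4 comparisons, as was DNAJC6. With HEKsite2 it had 175, 156 and 151 CPM in Target-AID, 136, 119 and 110 in SpACE, 131, 115 and 127 in ABEmax, 118, 109 and 116 in miniABEmax-V82G and 108, 106 and 105 in nCas9 cells. The RNF2 groups had 175, 163 and 159 CPM in Target-AID, 129, 138 and 126 in SpACE, 137, 132 and 148 in ABEmax, 133, 138 and 138 in miniABEmax-V82G and 134, 128 and 127 in nCas9 cells. GFP cells had 118, 116 and 115 CPM. Target-AID libraries stood above all other libraries with either guide. The log2 fold change was 0.60 (SE 0.066, adjusted p = 1.34e-09) in Target-AID cells with HEKsite2 and 0.35 (SE 0.064, adjusted p = 3.18e-05) with RNF2, and Target-AID exceeded SpACE by 0.40 and 0.34 on the log2 scale (adjusted p = 9.4e-06 and 0.000159). Its smaller rises with HEKsite2 in ABEmax, 0.23 (SE 0.068, adjusted p = 0.0173), and SpACE cells, 0.19 (SE 0.067, adjusted p = 0.0339), depended on single libraries. Leaving out nCas9 replicate 3 or ABEmax replicate 1 or 3 ended the ABEmax call (adjusted p up to 0.0988), and leaving out SpACE replicate 1 or 2 or any nCas9 library ended the SpACE call (up to 0.304).

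DNAJC6, or auxilin, which with HSP70 strips clathrin from vesicles, rose in Target-AID and SpACE cells with both guides. It had 56.8 ± 3.66 CPM in Target-AID, 47.7 ± 2.16 CPM in SpACE and 40.8 ± 0.803 CPM in nCas9 cells with HEKsite2 (SD, n = 3), and the log2 fold changes were 0.23 to 0.48. The SpACE call with HEKsite2 had an adjusted p of 0.0327 and of up to 0.112 without 1 library, lost without any nCas9 library or SpACE replicate 2 or 3. DNAJC27, a Rab-like GTPase with a J domain, had 16.2 ± 1.57 CPM in Target-AID and 10.8 ± 0.492 CPM in nCas9 cells with HEKsite2, a log2 fold change of 0.58 (SE 0.14, adjusted p = 0.00102). Its calls with RNF2 in Target-AID and miniABEmax-V82G cells were lost without replicate 1 or 2 of nCas9 or replicate 1 of the editor, and in miniABEmax-V82G also without its replicate 2 (adjusted p up to 0.338). DNAJC13, an endosomal member, had -0.13 to 0.10 and was called in 0 of the 8.

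DNAJC22 (chromosome 12, 49346917 to 49357546, plus strand), a membrane protein whose fly relative Wurst acts in endocytosis, was the only member called lower in all 8 comparisons. SpACE cells had 3.795, 3.364 and 3.502 CPM with HEKsite2 and 5.33, 3.87 and 4.74 CPM with RNF2. Target-AID cells had 5.76, 4.36 and 4.83 CPM with HEKsite2 and 4.80, 5.40 and 3.55 CPM with RNF2. ABEmax cells had 6.10, 7.07 and 5.52 CPM with HEKsite2 and 4.78, 5.07 and 5.27 CPM with RNF2. All these libraries lay below the nCas9 libraries of their guide. miniABEmax-V82G cells had 4.93, 6.31 and 5.41 CPM with HEKsite2 and 4.78, 5.54 and 5.83 CPM with RNF2. nCas9 cells had 9.94, 8.27 and 10.7 CPM with HEKsite2 and 8.351, 8.732 and 11.02 CPM with RNF2. GFP cells had 6.68, 4.70 and 5.19 CPM. nCas9 thus stood above GFP as well as above the editors, and the editors overlapped GFP, apart from SpACE with HEKsite2. The level rests on 95 to 232 counts per group of 3 libraries. Against nCas9 the log2 fold change was -1.45 (SE 0.18, adjusted p = 8.42e-08) in SpACE cells with HEKsite2 and between -1.02 and -0.64 in the other 7 comparisons, all called and all kept without any 1 library. Against GFP, nCas9 was higher by 0.78 (SE 0.14, adjusted p = 1.12e-05). Against the same GFP libraries ABEmax had 0.02 (SE 0.15, adjusted p = 0.922), miniABEmax-V82G -0.01 (SE 0.15, adjusted p = 0.969), Target-AID -0.21 (SE 0.15, adjusted p = 0.257) and SpACE -0.44 (SE 0.16, adjusted p = 0.0202).

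DNAJC7 and DNAJC12, class C members of the cytosol, changed little. DNAJC7, which binds both HSP70 and HSP90, had log2 differences of -0.11 to 0.23 and its 3 calls, SpACE with both guides and ABEmax with RNF2, were each lost without 3 or more of the 6 libraries in turn (adjusted p up to 0.263). DNAJC12, a partner of the aromatic amino acid hydroxylases, had -0.36 to 0.06 and was called lower in Target-AID cells with both guides. Its calls were lost without nCas9 replicate 1 or Target-AID replicate 1 of the guide, and with HEKsite2 also without nCas9 replicate 3 (adjusted p up to 0.171).

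Of the 6 tested members that act in the nucleus, on ribosomes or on RNA, DNAJC8, a spliceosome protein, fell in 6 of the 8 comparisons. It had 192 ± 12.0 CPM in Target-AID, 203 ± 5.39 CPM in SpACE and 257 ± 13.4 CPM in nCas9 cells with HEKsite2 (SD, n = 3). Its log2 fold changes were -0.42 to -0.12, lowest in Target-AID cells with HEKsite2, -0.42 (SE 0.067, adjusted p = 2.29e-06). Its call in ABEmax cells with HEKsite2 ended when nCas9 replicate 1 or ABEmax replicate 3 was left out (adjusted p up to 0.12), and that in SpACE cells with RNF2 without replicate 1 or 2 of either group (up to 0.137). DNAJC2, a ribosome-associated chaperone, rose in 3 of 8 comparisons, the SpACE one lost without replicate 1 or 2 of nCas9 or 1 or 3 of SpACE with RNF2 (up to 0.101), and DNAJC21, a ribosome assembly factor, in 1, with log2 fold changes of at most 0.30. DNAJC9, a histone chaperone, DNAJC17 and DNAJC24 were called in 0 of the 8.

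Of the 11 tested members of the endoplasmic reticulum (ER) some rose and some fell. The numbers that rose and fell were 2 and 1 in ABEmax, 1 and 1 in miniABEmax-V82G, 2 and 3 in Target-AID and 3 and 1 in SpACE cells with HEKsite2 (all genes called in either direction: 15.9%, 10.3%, 40.6% and 21.0%). With RNF2 they were 0 and 1, 0 and 0, 2 and 1, and 3 and 0 in the same order of editors (11.2%, 12.6%, 35.2% and 14.7% of all genes). In Target-AID cells the ER share was thus near or below that of all genes. The median log2 difference of the 11 was -0.05 to 0.13. DNAJB11, a co-chaperone of the ER HSP70 BiP, had 70.7 ± 4.65 CPM in Target-AID and 93.6 ± 10.7 CPM in nCas9 cells with HEKsite2, -0.40 (SE 0.069, adjusted p = 1.01e-05), and was called in no other of the 8. DNAJB14, an ER membrane protein, rose in Target-AID and SpACE cells with both guides by 0.23 to 0.36. DNAJC14, also an ER membrane protein, fell in 5 comparisons by at most 0.33, with the Target-AID call (adjusted p = 0.0243) lost without nCas9 replicate 1 or 3 or Target-AID replicate 2 or 3 (up to 0.0983). DNAJC10, an ER reductase, fell in Target-AID cells by 0.23 with HEKsite2 and 0.22 with RNF2 on the log2 scale, and the call with RNF2 was lost without nCas9 replicate 1 (0.0702). DNAJC3, which restrains the stress kinase PERK, DNAJC18 and DNAJC25 were called in 0 of the 8. DNAJB9, a target of the unfolded protein response, was called in 1, miniABEmax-V82G with HEKsite2, a call lost without any nCas9 library or miniABEmax-V82G replicate 2 or 3 (up to 0.118). DNAJB12, an ER membrane protein, rose in 3, and its calls in ABEmax and Target-AID cells with HEKsite2 were lost without any nCas9 library or replicate 1 or 3 of the editor (up to 0.185). DNAJC1 rose in ABEmax cells with HEKsite2, a call lost without any ABEmax library or nCas9 replicate 2 or 3 (up to 0.137), and in SpACE cells with both guides, where the RNF2 call was lost without SpACE replicate 1 or 3 or nCas9 replicate 3 (up to 0.132). DNAJC16 rose in Target-AID cells with RNF2 and in SpACE cells with HEKsite2, the SpACE call being lost without nCas9 replicate 1 or 2 or SpACE replicate 2 or 3 (up to 0.102).

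Among the 6 tested mitochondrial members the largest difference was that of DNAJC28. In Target-AID cells it had 2.06, 3.20 and 1.61 CPM with HEKsite2 and 2.24, 2.43 and 2.26 CPM with RNF2, and in nCas9 cells 6.55, 4.07 and 4.82 CPM with HEKsite2 and 3.60, 3.99 and 4.10 CPM with RNF2. Target-AID libraries lay below nCas9 libraries of the same guide, with -1.14 (SE 0.23, adjusted p = 9.91e-05) and -0.75 (SE 0.24, adjusted p = 0.0146), on 66 and 65 counts per Target-AID group. With HEKsite2 it was also lower in Target-AID than in SpACE cells, at -1.005 (SE 0.23, adjusted p = 0.00142). DNAJC30, tied to assembly of respiratory complex I and ATP synthase, had 4.20 ± 1.33 CPM in nCas9 with HEKsite2, 7.47 ± 0.927 CPM in nCas9 with RNF2 and 5.87 to 7.67 CPM as means of the 8 editor groups. It was called higher in 3 comparisons with HEKsite2, 0.64 to 0.70 on the log2 scale, and in 0 with RNF2. Each call was lost without nCas9 replicate 1. The miniABEmax-V82G and SpACE calls were also lost without nCas9 replicate 2, miniABEmax-V82G replicate 2 or 3 or SpACE replicate 1 (adjusted p up to 0.255). DNAJA3, DNAJC19, of the protein import motor, DNAJC11 and DNAJC4 were called in 0, 0, 1 and 1 of the 8. The DNAJC11 call (miniABEmax-V82G, RNF2) was lost without miniABEmax-V82G replicate 2 or 3 or nCas9 replicate 3 (up to 0.112), and the DNAJC4 call (Target-AID, HEKsite2, lower) without any nCas9 library or Target-AID replicate 1 or 2 (up to 0.196).

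The controls also differed from each other. In nCas9 cells, taken over both guides, 10 of 39 members were higher and 9 lower than in GFP cells (all genes tested: 22.8% higher and 22.7% lower), so the share called was near that of all genes. Of the cytosolic and nuclear co-chaperones of classes A and B, DNAJB1, DNAJB4 and DNAJA1 were lower, at -0.57 (SE 0.068, adjusted p = 5.84e-09), -0.52 (SE 0.069, adjusted p = 7.95e-08) and -0.24 (SE 0.055, adjusted p = 0.000496). The DNAJA1 libraries of these groups overlapped. DNAJB5 was higher by 0.43 (SE 0.12, adjusted p = 0.00399), and DNAJB6 and DNAJB2 were not called, at -0.09 (SE 0.046, adjusted p = 0.104) and 0.20 (SE 0.086, adjusted p = 0.0534). Without nCas9 RNF2 replicate 1 DNAJB6 was called (adjusted p = 0.0368), and DNAJB2 was called without nCas9 HEKsite2 replicate 1 or 2, nCas9 RNF2 replicate 2 or GFP replicate 2 (down to 0.0321). DNAJC27 had 10.8 ± 0.492 and 12.6 ± 1.56 CPM in nCas9 cells with HEKsite2 and RNF2 and 7.31 ± 0.380 CPM in GFP cells, 0.68 (SE 0.14, adjusted p = 8.47e-05). Among ER members 3 rose and 5 fell, with DNAJC25 at 0.45 and DNAJC16 at -0.39 the outermost.

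Set against GFP in place of nCas9, with both guides of an editor averaged, DNAJB1, DNAJA1, DNAJB5 and DNAJB6 were again higher with every editor. In ABEmax cells 18 rose and 7 fell (all genes tested: 27.0% and 27.0%, 54.0% in all), in miniABEmax-V82G cells 14 rose and 7 fell (all genes tested: 24.2% and 24.3%, 48.5% in all), in Target-AID cells 18 rose and 8 fell (all genes tested: 27.4% and 24.6%, 51.9% in all) and in SpACE cells 17 rose and 7 fell (all genes tested: 21.4% and 21.9%, 43.3% in all). The pseudogene, which had to differ in Target-AID cells, is 1 of the 18 rises there. These comparisons with GFP share the GFP libraries. DNAJB1 was higher than in GFP cells by 3.01 (SE 0.078, adjusted p = 5.07e-30) in Target-AID cells and by 1.31 to 1.45 with the other editors. DNAJA1 was higher by 0.14 to 0.31 in all 4. DNAJB4 was called higher in Target-AID, SpACE and ABEmax cells, by 0.30, 0.35 and 0.18, and not in miniABEmax-V82G cells, 0.01 (SE 0.067, adjusted p = 0.928). DNAJB5 was higher by 1.02 to 1.47 and DNAJB6 by 0.20 to 0.53 in all 4. DNAJC27 was higher by 1.17 (SE 0.13, adjusted p = 6.23e-10) in Target-AID cells and by 0.70 to 0.98 with the other editors. DNAJC14 was lower than in GFP cells by 0.35 to 0.50 on the log2 scale with every editor. It was lower in nCas9 than in GFP cells too, at -0.24 (edgeR adjusted p = 0.000175).

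Target-AID and SpACE were compared directly with the same guide. With HEKsite2, 7 members were higher and 4 lower in Target-AID cells (all genes tested: 10.3% and 8.21%), and with RNF2 5 were higher and 2 lower (9.32% and 6.61%), the pseudogene being 1 of the higher ones each time. DNAJB1, DNAJB5, DNAJC5 and DNAJC27 were higher with both guides and DNAJC7, at -0.29 and -0.21, was lower. With HEKsite2 DNAJC1 and DNAJB11 were lower as well, at -0.36 and -0.32. The count of 7 with RNF2 rested on single libraries: it was 4 without SpACE replicate 1 or Target-AID replicate 2 and 13 without Target-AID replicate 3. DNAJB1 and DNAJC5 were called in all 6 fits without 1 library, and DNAJC27, DNAJC7 and DNAJC19 in 3, 3 and 1 of them.

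The guides were compared next. In nCas9 cells, 2 of 39 members were higher with the RNF2 guide and 0 lower (all genes tested: 0.602% and 1.46%), DNAJC5 by 0.28 (SE 0.067, adjusted p = 0.0136) and DNAJC30 by 0.82 (SE 0.21, adjusted p = 0.0282). Without any 1 of the 6 nCas9 libraries only 1 of these calls was left: DNAJC30 without HEKsite2 replicate 3 or RNF2 replicate 1, and DNAJC5 without each of the other 4. The test of whether an editor's difference from nCas9 depended on the guide called 0 members for each of the 4 editors, by edgeR and by DESeq2. By edgeR it called 0% of all genes tested for ABEmax, 0.0137% for miniABEmax-V82G, 0.164% for Target-AID and 0.0274% for SpACE, so 0 of 39 does not set the members apart. At an unadjusted p under 0.05 edgeR had 3 members for ABEmax, 4 for miniABEmax-V82G, 5 for Target-AID and 2 for SpACE, of 39. The share of all genes at this unadjusted threshold was not computed, so these counts are not read as a dependence on the guide.

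Across all 11 groups 34 of 39 members differed by the F-test (all genes tested: 73.9%). The pseudogene, which passed the count filter only through Target-AID, is 1 of the 34. DNAJB1 had the order Target-AID, then the other editors, then GFP, then nCas9, with no overlap between these 4 levels. DNAJA1 and DNAJB4 overlapped from group to group along the editors, and their lowest groups were the nCas9 ones. Over the 11 group means of log2 CPM, the genes most like DNAJB1 included PREX1 (r = 0.989) and AGO4 (0.983), and among members DNAJC6 (0.915) and DNAJB5 (0.885). Those most like DNAJA1 were STIP1 (0.985), PPID (0.978) and DIAPH3 (0.974), with DNAJB4 (0.961) in 4th place. For DNAJC22 they were CLP1 (0.945), ZBTB7B (0.939) and FOXO4 (0.938). These are descriptions over 11 points that share their libraries.

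The partners of J-domain proteins and related genes were read from a list of 36 genes, all tested. It held 14 genes of the HSP70 and HSP110 families and 10 nucleotide exchange factors. A further 7 were the adaptors STIP1, ST13 and STUB1, the HSP90 genes HSP90AA1 and HSP90AB1, and the transcription factors HSF1 and HSF2. The rest were 4 genes with a J domain under another name and DNLZ, a zinc finger escort protein of mitochondrial HSP70. With HEKsite2 the numbers that rose and fell were 17 and 0 in ABEmax, 12 and 0 in miniABEmax-V82G, 15 and 9 in Target-AID and 14 and 1 in SpACE cells, beside 8.31% higher and 7.55% lower, 5.02% and 5.32%, 21.5% and 19.1%, and 10.7% and 10.2% of all genes. With RNF2 they were 13 and 2, 13 and 0, 19 and 6 and 13 and 3 for the same editors, beside 6.51% and 4.66%, 6.88% and 5.72%, 19.4% and 15.8%, and 8.03% and 6.68% of all genes. The median log2 difference of the 36 was 0.07 to 0.20. HSPA6, a strictly inducible HSP70, had 1503 ± 83.0 CPM in Target-AID, 152 ± 46.1 in SpACE and 16.3 ± 1.26 in nCas9 cells with HEKsite2, and 3.58 ± 0.449 in GFP cells (SD, n = 3), a log2 fold change of 6.52 (SE 0.14, adjusted p = 7.21e-33) for Target-AID against nCas9. HSPH1, an HSP110 exchange factor, BAG3, an exchange factor of stress autophagy, and HSP90AA1, the inducible HSP90, rose in all 8 comparisons, by 1.07 to 1.83, 1.16 to 2.37 and 0.46 to 1.00 on the log2 scale. HSPA1B rose in all 8 by 1.85 to 3.39. BAG5, another exchange factor, rose in ABEmax cells, 1.57 (SE 0.071, adjusted p = 1.02e-20) with HEKsite2 and 1.28 (SE 0.070, adjusted p = 6.12e-18) with RNF2, and had -0.13 to 0.11 with the other editors, not called.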

How the data were processed

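The authors deposited 1 table of whole-number read counts per gene for the 33 libraries, with no normalization. Per the labels' protocols, total RNA was prepared with a stranded kit from cells used up to passage 20. Per the submitters' processing notes the tools included STAR, GATK 3.8.1 and Picard 2.7 with the GRCh38 (hg38) build. The counting tool, its annotation and its strand setting were not given in the sources used here. Columns were matched to samples by name, and 0 columns had no sample.

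Genes that passed edgeR's filterByExpr were fitted in 1 model of 11 group means (R 4.3.3, edgeR 4.0.16 with limma 3.58.1, TMM scaling, quasi-likelihood F-test, two-sided, Benjamini-Hochberg over 14613 genes), and a gene was called at an adjusted p under 0.05. SE was the log2 fold change divided by the square root of F. CPM used TMM-scaled library sizes, apart from the marker sums, which used unscaled library totals. The code was tested on simulated data first. Alternatives were RLE scaling, DESeq2 1.42.0, no filter, a fit of only the groups compared, the replicate number as a block, and each library left out. Gene positions and exon lengths are from GENCODE 29, and promoter windows from RefSeq. Figures were drawn with matplotlib 3.10.9.

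The members, role groups, markers and partner list were chosen with earlier results of these data known. Members were described in full if they were DNAJB1, DNAJA1 or DNAJC22, or were called the same way in at least 4 of the 8 comparisons of an editor with nCas9 with a log2 difference of at least 0.5 in 1 of them. At most 6 partners were named, those with the smallest p over all groups, beside J-domain genes with other names and DNLZ. Some values that these rules cover are not reported here. DNAJC28 was given per library after its values were seen. The chi-square per degree of freedom between replicates of a group was 1.37 to 19.1, so no libraries were taken as duplicates.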

Additional observations from a re-analysis of the deposited data

How the results depend on the processing

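Counts of called members kept within 1.5 times the reported count in 102 of 104 recalculations with another scaling, filter, tool or design. No fold change that was called in the main or the other fit reversed its sign. Sign changes of fold changes called in neither fit were not counted. Without a filter on low counts 1 member, against 0, was called for the dependence of the Target-AID difference on the guide, and with only the groups compared 2, against 7, were called between Target-AID and SpACE with RNF2; the cause was not tested beyond the fewer libraries of that fit. Leaving out 1 library gave 1 call, against 2, for the guide in nCas9 cells in every case (range 1 to 1), and 4 to 13, against 7, between Target-AID and SpACE with RNF2. The other ranges without 1 library were 8 to 11 against 12 (ABEmax), 7 to 9 against 10 (miniABEmax-V82G), 16 to 19 against 21 (Target-AID) and 12 to 15 against 17 (SpACE) with HEKsite2. Of single fold changes, 22 lost and 14 gained a call under the other settings, and 112 lost and 25 gained one without a library. Deviations from the group mean were correlated between same-numbered libraries of an editor and of nCas9 with the same guide, at -0.071 to 0.17. Such small values do not show a pairing by number and cannot exclude it, and the main fit did not use the numbers. With the replicate number as a block the counts against nCas9 were 13, 11, 21 and 18 for ABEmax, miniABEmax-V82G, Target-AID and SpACE with HEKsite2, and 10, 11, 17 and 15 with RNF2. The test over all 11 groups could not be repeated with only the groups compared. Depth limits DNAJA4, DNAJC28 and DNAJC22 most, with 16 to 32, 65 to 126 and 95 to 232 counts per group.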

Other observations

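Some genes of the partner list carry a J domain under another name or, as DNLZ, escort HSP70. HSCB, the mitochondrial co-chaperone of iron-sulfur cluster assembly, had 18.3 ± 0.946 CPM in Target-AID and 23.6 ± 1.02 CPM in nCas9 cells with HEKsite2, and 13.2 ± 0.54 CPM in GFP cells (SD, n = 3). It was higher in nCas9 than in GFP cells by 0.85 on the log2 scale (edgeR adjusted p = 1.19e-09), and lower than in nCas9 in Target-AID cells with both guides, at -0.36 each, and in SpACE cells with RNF2, at -0.38. GAK, a relative of auxilin, was called higher in Target-AID cells with HEKsite2, at 0.17, and lower in SpACE cells with RNF2, at -0.21. SEC63, of the ER translocon, and DNLZ, a mitochondrial HSP70 escort protein without a J domain, did not pass the test over the 11 groups (edgeR adjusted p = 0.342 and 0.465).

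The antisense gene DNAJC3-AS1 had 1.36 ± 0.392 and 1.81 ± 0.887 CPM in nCas9 cells with HEKsite2 and RNF2 and 3.92 ± 0.344 CPM in GFP cells (SD, n = 3), a log2 fold change of -1.30 (edgeR adjusted p = 2.02e-05). DNAJC3 itself was not called between these controls, with an edgeR adjusted p of 0.0851 (0.0408 without nCas9 RNF2 replicate 3).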
